A study of Mus musculus with 30 samples.

Results

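The core contractile genes of the heart muscle sarcomere were followed in left ventricular RNA of mice. The set holds 10 genes, Myh6, Myh7, Myl2, Myl3, Mybpc3, Actc1, Tpm1, Tnnt2, Tnni3 and Tnnc1, taken by name for the proteins they encode. The rule uses no measured value, though the set was proposed with earlier results of these data known. They were 10 of 49671 genes counted in the peptide study and 10 of 56386 genes in the antibody study, where their transcripts were 84 of 142647. Each library came from the left ventricle of 1 mouse. All mice were wild type and, by the study's methods, male C57BL6J (the deposited design text writes C57BL6 for the antibody mice), and by the deposited text 12 weeks old when the peptide or the diet began. The study's methods give 10 to 12 weeks for the start of the peptide and place the start of the diet 1 week after a baseline examination at 12 weeks, and these differences were not resolved. Mice of the peptide study are named by their sample titles.

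In the peptide study, 7 mice were administered Aβ42, the amyloid-β peptide, and 7 mice its scrambled control ScrAβ42, by daily intraperitoneal injection for 4 weeks. The labels give the amount as 1 mg per day and the study's methods as 1 µg per day, and the difference was not resolved. In the antibody study, 8 mice were given 3D6, an antibody that binds amyloid-β, and 8 mice a control antibody of the IgG2a isotype, each once weekly. The study's methods place all of the antibody mice on a high-fat diet, whereas the deposited design text says that they were also given Aβ42, so what both antibody groups share is not settled here. The sources do not say that any animals were pooled. Values of the 2 studies were normalised separately and are not compared with each other.

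A sarcomere shortens when myosin heads of the thick filament pull on actin of the thin filament. Each myosin carries a heavy chain, which is the motor, and essential and regulatory light chains at its neck, and myosin-binding protein C braces the heads. On the thin filament, tropomyosin covers the myosin sites on actin, and the troponin complex moves it aside when calcium binds. Adult mouse ventricle uses mainly the fast α heavy chain from Myh6, the fetal ventricle mainly the slow β heavy chain from Myh7, and a shift towards Myh7 is a classic response to pressure overload or to low thyroid hormone.

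Each of the 10 genes averaged 10 or more counts a heart in both studies and was tested. Levels are given as CPM, counts scaled to library size with TMM factors, and groups were compared by edgeR (quasi-likelihood), with p adjusted over all genes tested by the method of Benjamini and Hochberg. None of the 10 genes passed an adjusted p of 0.05 in either study, and neither did any other gene, so that 0% of 11985 genes were called in the peptide study and 0% of 12274 in the antibody study. DESeq2 called 12 genes in the peptide study, none of them among the 10, and 0 in the antibody study. The lowest adjusted p among the 10 genes was 0.639 with Aβ42 and 0.946 with 3D6. At an unadjusted p under 0.05, edgeR found 780 genes in the peptide study, 6.51% of those tested, and 447 in the antibody study, 3.64% of those tested. In both comparisons the tests measure the spread between these mice.

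Myh7 was the member with the smallest p in the peptide study. In mice administered Aβ42 its level ran from 326 CPM through a median of 475 to 596 CPM. In mice administered ScrAβ42 it ran from 492 through a median of 641 to 816 CPM. All 7 Aβ42 hearts lay below the ScrAβ42 median, 5 lay below the lowest ScrAβ42 heart and 4 ScrAβ42 hearts lay above the highest Aβ42 heart, so the groups overlapped only between 492 and 596 CPM. The means were 469 ± 92.8 CPM (SD, n = 7) with Aβ42 and 657 ± 131 CPM (SD, n = 7) with ScrAβ42. The log2 fold change was -0.49 (standard error 0.15, 95% interval -0.80 to -0.17), with an unadjusted p of 0.0045 and an adjusted p of 0.639 from edgeR. By p, Myh7 ranked 78 of 11985 genes. It was the only 1 of the 10 members with an unadjusted p under 0.05, beside 2.92% of all genes that were lower and 3.59% that were higher with Aβ42 at that threshold. Over 9 alternative fits the log2 fold change stayed between -0.50 and -0.47 and the adjusted p between 0.180 and 0.904. Leaving out each mouse in turn gave -0.55 to -0.41.

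Myh6, the neighbouring gene for the α heavy chain, was the most counted member. Its level was 23727, 31376 and 39126 CPM (lowest, median and highest heart) with Aβ42. With ScrAβ42 it was 27054, 33102 and 44473 CPM. The groups overlapped over most of their range, and the highest heart of all was mouse ScrAbeta42_3449, far above the next ScrAβ42 heart at 33992 CPM. The log2 fold change was -0.12 (standard error 0.13, 95% interval -0.40 to 0.17, unadjusted p = 0.404 from edgeR). It was -0.18 without mouse Abeta42_3460, -0.06 without mouse Abeta42_3457 and -0.04 without mouse ScrAbeta42_3449.

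The share of β over α heavy chain was read as Myh7 counts in percent of Myh6 counts in the same heart, a measure that does not depend on library scaling. It was 1.08%, 1.39% and 2.12% (lowest, median and highest) with Aβ42, and 1.44%, 1.68% and 2.84% with ScrAβ42. Of the 7 Aβ42 hearts, 4 lay below every ScrAβ42 heart, and 3 ScrAβ42 hearts lay above every Aβ42 heart. The mean log2 ratio differed by -0.37 between Aβ42 and ScrAβ42. A two-sided exact permutation test over all 3432 assignments of the 14 hearts gave p = 0.0839, so the difference did not exceed the spread between mice at 0.05. The medians of the log2 ratio differed by -0.27, with an exact permutation p of 0.289. With the atrial marker level removed by a linear fit, the difference in means was -0.49, given without a test. Without mouse Abeta42_3455, whose ratio was the highest of its group, the difference in means was -0.46 and the exact p 0.0408. The atrial markers described further on were also high in that heart.

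In the antibody study the slow heavy chain varied more between mice than between groups. Myh7 was 54.5, 117 and 251 CPM (lowest, median and highest) with 3D6 and 56.6, 133 and 329 CPM with the control antibody. Its coefficient of variation was 57.3% in 3D6 hearts and 56.3% in control hearts, where the median gene had 17.3% and 21.04%. The log2 fold change was -0.34 (standard error 0.36, 95% interval -1.10 to 0.41, unadjusted p = 0.353, adjusted p = 0.946 from edgeR). It moved from -0.55 to -0.12 when single mice were left out, the latter without control mouse 18, which had the highest level, and it was -0.20 without control mouse 23, -0.23 without 3D6 mouse 4 and -0.55 without 3D6 mouse 17. Over 9 alternative fits it ran from -0.38 to -0.14. The Myh7 share of Myh6 counts was 0.200%, 0.427% and 0.946% with 3D6, and 0.224%, 0.535% and 1.15% with the control antibody. The mean log2 ratio differed by -0.37, with an exact permutation p of 0.373 over 12870 assignments. It ranged from -0.56 without control mouse 15 to -0.21 without 3D6 mouse 4, and was -0.22 without control mouse 23 and -0.23 without control mouse 18. Myh6 itself was the steadiest member, at 23198 to 27395 CPM with 3D6 and 23816 to 29589 CPM with the control antibody, a log2 fold change of 0.02 (standard error 0.07).

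**Figure D1:**
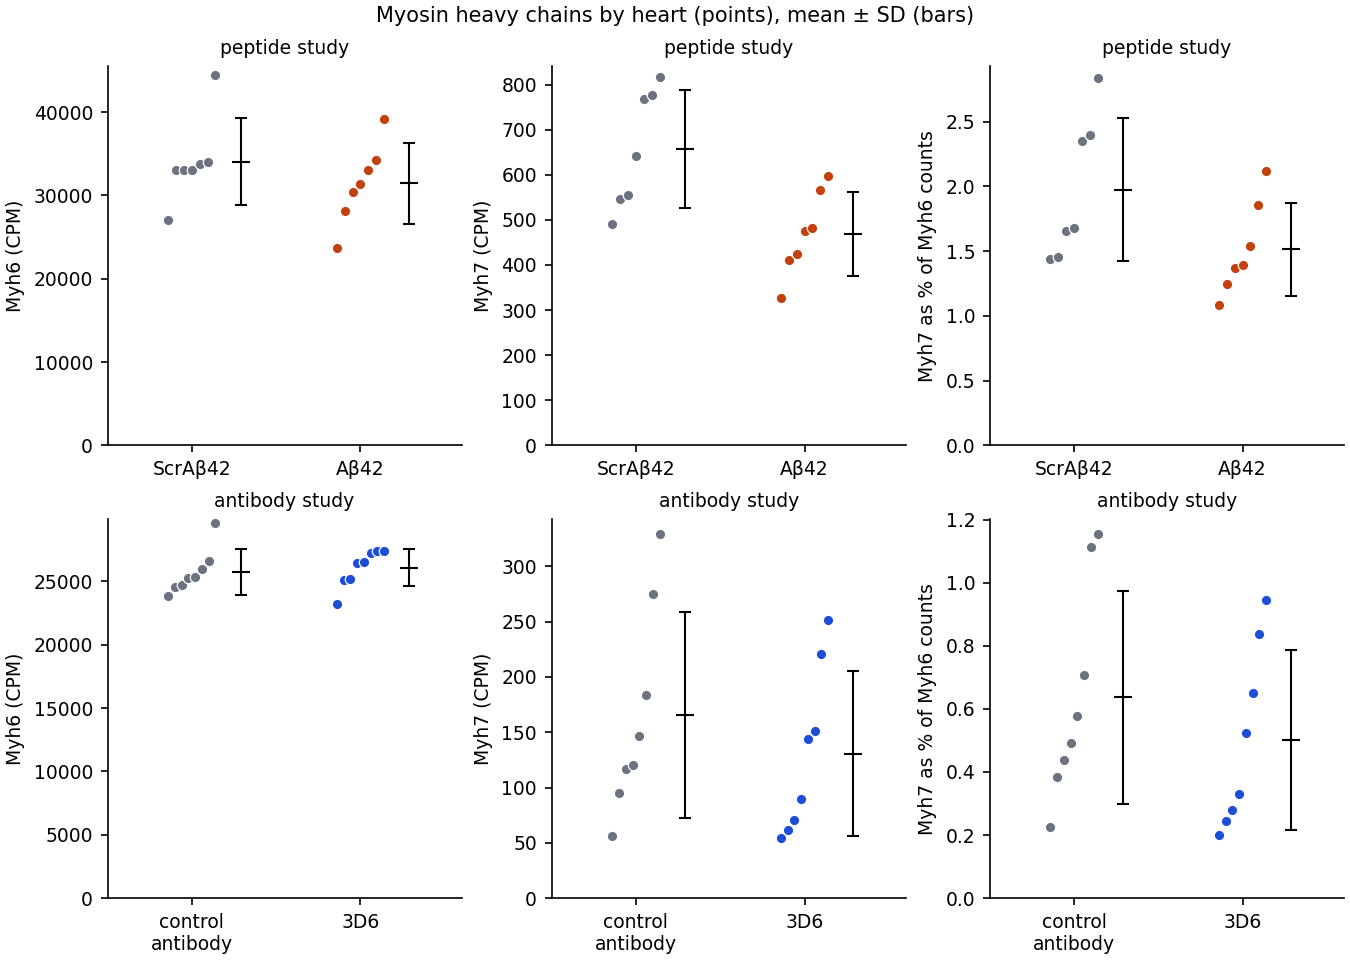
Levels of Myh6 and Myh7 in CPM and Myh7 counts in percent of Myh6 counts, with 1 point per heart and bars for the mean ± SD, in the peptide study (top, 7 hearts a group) and the antibody study (bottom, 8 hearts a group). With Aβ42, 5 of 7 Myh7 points lie below the lowest ScrAβ42 point, whereas the 3D6 and control antibody points overlap.

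The 2 heavy chain genes stand in tandem on the minus strand of chromosome 14 of GRCm38, Myh6 at 54941921 to 54966927 and Myh7 at 54970684 to 54994626. Their nearness in sequence bears on how reads can be told apart. In GENCODE vM21, the coding sequences of Myh6-205 (5814 bases) and Myh7-201 (5805 bases), the most counted transcripts of each, were identical at 91.7% of 5802 aligned bases, and their longest identical run was 245 bases. Of the 31-base words of Myh6-205, 33.0% also occurred in transcripts of other genes, nearly all of them Myh7 (32.9%). Of those of Myh7-201, 32.4% did so, nearly all of them Myh6 (32.2%). In the estimated counts of the antibody study, reads within such stretches are divided between the genes by estimation. The low level of Myh7 is therefore the less certain of the pair there. The peptide study's values were deposited as counts per gene, and how they treat such reads is not settled here. The 60 aligned bases within a single exon that differ most between the genes are shown here, because reads across them can be assigned without doubt. They lie in exon 25 of Myh6-205 (chr14:54952277-54952336, minus strand) and exon 27 of Myh7-201 (chr14:54980352-54980411, minus strand), both in coding sequence, and capitals mark the 24 bases that differ.
Myh6: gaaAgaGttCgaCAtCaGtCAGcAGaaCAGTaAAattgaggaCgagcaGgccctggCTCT
Myh7: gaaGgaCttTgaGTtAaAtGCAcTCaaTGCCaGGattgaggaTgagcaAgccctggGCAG

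Each heavy chain gene also carries a miRNA of the same family in an intron, and these are known to be made from the host's transcript and to act in turn on the balance of the heavy chains. Mir208a lies in intron 29 of Myh6-205 (hairpin chr14:54949060-54949142) and Mir208b in intron 31 of Myh7-201 (hairpin chr14:54975700-54975776). A related miRNA, miR-499, lies in intron 19 of Myh7b-201 (hairpin chr2:155622880-155622958, plus strand), a heavy chain gene of slow muscle. The mature sequences of RefSeq for GRCm38.p6 are shown because the seed, bases 2 to 8 in capitals, is what pairs with targets. The seeds of miR-208a-3p and miR-208b-3p are identical, 3 of their 22 bases differ elsewhere, and the seed of miR-499-5p is not the same.
mmu-miR-208a-3p: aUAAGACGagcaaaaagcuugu
mmu-miR-208b-3p: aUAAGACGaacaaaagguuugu
mmu-miR-499-5p: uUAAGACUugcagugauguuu
These libraries were made of total RNA and not of small RNA, so what was counted at these loci is not the mature miRNA. In the peptide study the Mir208b locus had 14.1 ± 3.34 CPM with Aβ42 and 18.3 ± 9.92 CPM with ScrAβ42 (SD, n = 7 each), and the Mir208a locus 1.04 ± 0.343 and 1.71 ± 0.770 CPM. Both were listed at 0 in every heart of the antibody study.

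On the opposite strand, Mhrt, a long noncoding RNA of heart muscle, overlaps the 3′ part of Myh7 at 54968678 to 54974349. It was at 68.2 ± 11.1 CPM with Aβ42 and 82.2 ± 36.3 CPM with ScrAβ42 (SD, n = 7 each), the highest value being 160 CPM in mouse ScrAbeta42_3449. With 3D6 it was at 25.7 ± 1.83 CPM and with the control antibody at 26.8 ± 11.2 CPM (SD, n = 8 each). Of the 31-base words of Myh7-201, 14.0% occur in reverse complement in transcripts of other genes, and 7.31% of those of Myh6-205. The library kit kept the strand, but the sources used here do not say whether the counting used it. Where it did not, reads of Myh7 and of its antisense RNAs cannot be told apart. Other antisense genes over Myh7 had lower levels than Mhrt, at most 22.0 CPM on average for Gm31251 in control antibody hearts.

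Among Aβ42 hearts, the light chains stand out of the members for how far apart single hearts were. Their coefficients of variation were 45.0% for Myl2 and 43.5% for Myl3 there, against 19.2% and 19.5% with ScrAβ42. Myl2 encodes the regulatory light chain of ventricular muscle and Myl3 the essential light chain of ventricular and slow muscle. Myl2 was 804, 6474 and 7134 CPM (lowest, median and highest) with Aβ42, and 3684, 5856 and 7379 CPM with ScrAβ42. Myl3 was 737, 4609 and 5231 CPM with Aβ42, and 2745, 4404 and 5501 CPM with ScrAβ42. The lowest value of both genes came from mouse Abeta42_3457, and apart from it the groups overlapped. Mitochondrial genes took 12.9% of the counts of this heart, the lowest share of the peptide study, and their part in these levels was not tested. The log2 fold change was -0.20 for Myl2 (standard error 0.33) and -0.22 for Myl3 (standard error 0.31), with unadjusted p of 0.557 and 0.495 from edgeR. Without mouse Abeta42_3457 they were -0.01 and -0.03, and without mouse Abeta42_3460 that of Myl2 was -0.30. They were -0.40 and -0.38 with limma-voom, and -0.37 each with the trend on transcript length as a covariate, an alternative chosen after seeing the data, with unadjusted p from 0.0780 to 0.317.

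The same heart had the highest level of atrial light chains. Myl7 and Myl4, the regulatory and essential light chains of atrial muscle, were at 3043 and 3841 CPM in mouse Abeta42_3457. Myl7 exceeded 1000 CPM in 4 of 14 hearts, those of mice Abeta42_3455, Abeta42_3457, Abeta42_3458 and ScrAbeta42_3448, and was at most 416 CPM in the other 10. In these 4 hearts Myl2 was 804 to 4111 CPM, against 5681 to 7379 CPM in the other 10, and Myl3 was 737 to 3125 CPM against 4241 to 5501 CPM. Mybpc3, Tnnc1 and Tpm1 were also lower in these 4 hearts than in any other heart, at 1425 to 3271, 878 to 1684 and 4367 to 7250 CPM. Myh7 did not separate in this way, at 326 to 768 CPM in the 4 hearts and 424 to 816 CPM in the other 10. Myl7 is a marker of another chamber, and in bulk tissue fewer ventricular muscle cells and less RNA per cell cannot be told apart.

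With the mean log2 CPM of the atrial genes Sln, Myl7, Myl4, Bmp10 and Mybphl as a covariate, the log2 fold change for Aβ42 was 0.22 for Myl2, 0.21 for Myl3, 0.19 for Tnnc1, 0.24 for Tpm1 and 0.01 for Myh6, all of them reversed in sign. Those of Tnnt2 and Tnni3 were 0.22 each, above 0 as without the covariate but larger, with unadjusted p of 0.0688 and 0.126 from edgeR, and that of Actc1 was -0.16 (unadjusted p = 0.376). That of Myh7 was -0.49, as without the covariate, with an unadjusted p of 0.0092 and an adjusted p of 0.518. The median over the 10 members changed from -0.16 to 0.20.

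**Figure D2:**
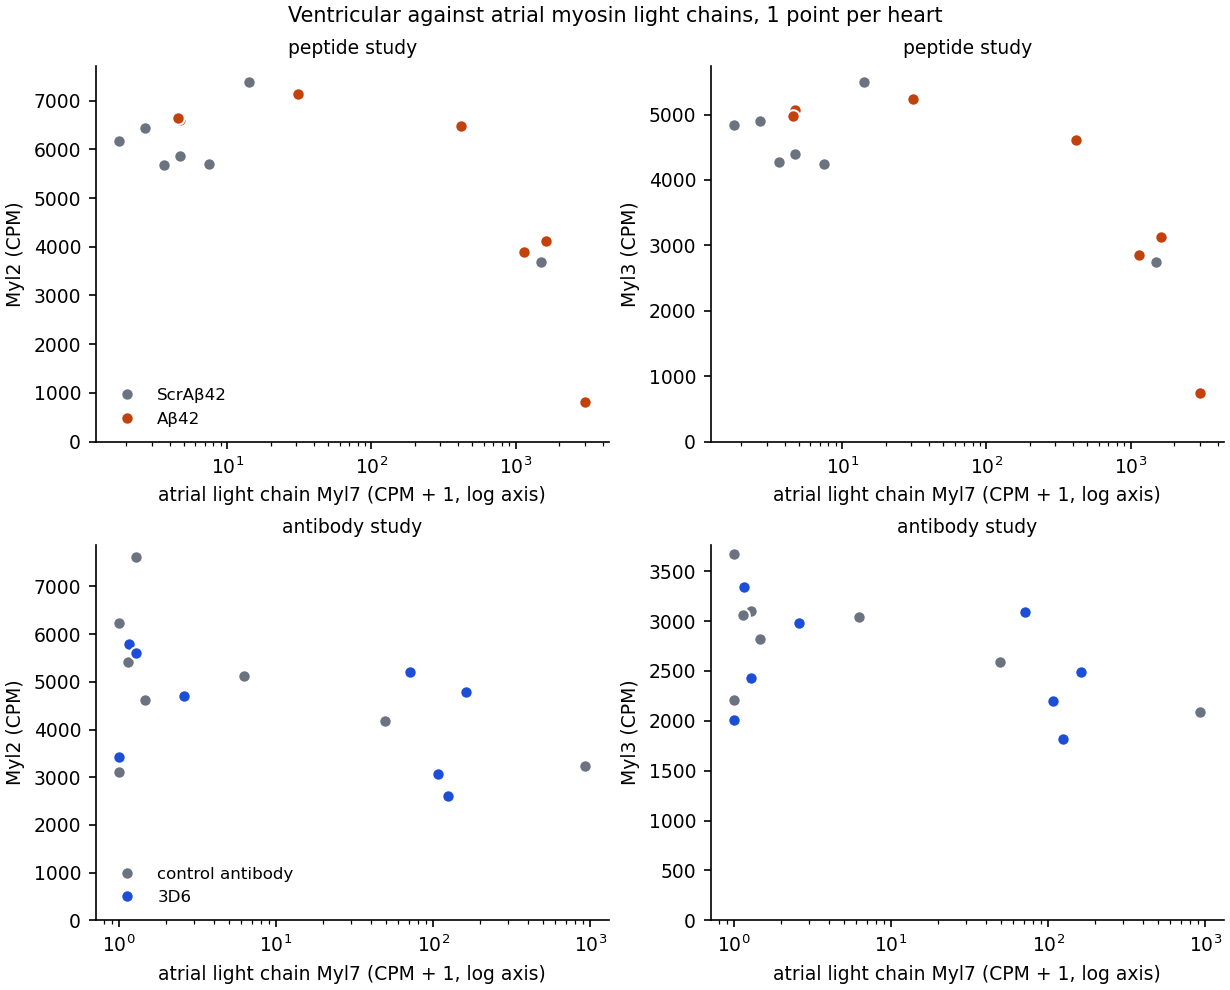
Myl2 (left) and Myl3 (right) in CPM against the atrial light chain Myl7 in CPM + 1 on a log axis, 1 point per heart, in the peptide study (top) and the antibody study (bottom). In the peptide study the 4 hearts with Myl7 over 1000 CPM have the lowest Myl2 and Myl3, and mouse Abeta42_3457 is lowest at 804 and 737 CPM.

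With 3D6, Myl2 was 2613, 4739 and 5788 CPM (lowest, median and highest), and with the control antibody 3115, 4875 and 7617 CPM. Myl3 was 1818, 2462 and 3347 CPM with 3D6 and 2086, 2933 and 3670 CPM with the control antibody. The groups overlapped for both genes, and log2 fold changes were -0.17 (95% interval -0.58 to 0.24, unadjusted p = 0.396) and -0.15 (95% interval -0.44 to 0.14, unadjusted p = 0.296 from edgeR). That of Myl2 was -0.05 without control mouse 22, -0.09 without 3D6 mouse 7, -0.11 without 3D6 mouse 12, -0.09 with the atrial covariate and -0.05 with the trend on length. That of Myl3 was -0.09 without 3D6 mouse 7, without control mouse 18 and with the trend on length, and -0.10 with the atrial covariate.

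Mybpc3 encodes cardiac myosin-binding protein C. It was 1425, 3336 and 3904 CPM (lowest, median and highest) with Aβ42 and 3271, 3822 and 4312 CPM with ScrAβ42. Of the Aβ42 hearts 6 of 7 lay below the ScrAβ42 median and 3 below the lowest ScrAβ42 heart. The log2 fold change was -0.34 (standard error 0.17, 95% interval -0.71 to 0.03), the second smallest p of the members at 0.0709 unadjusted and 0.775 adjusted by edgeR. Leaving out mouse Abeta42_3457 gave -0.22, and the atrial covariate gave -0.12. With the trend on transcript length as a covariate edgeR gave -0.39, with an unadjusted p of 0.0045 and an adjusted p of 0.218. With total-count scaling edgeR gave -0.34, with an unadjusted p of 0.0203 and an adjusted p of 0.904. Without mouse Abeta42_3460 edgeR gave -0.41, with an unadjusted p of 0.0354 and an adjusted p of 0.610. With 3D6 it was 1630, 2072 and 2368 CPM and with the control antibody 1667, 2332 and 2421 CPM, a log2 fold change of -0.11 (unadjusted p = 0.308), which was -0.07 without 3D6 mouse 4 or 3D6 mouse 24.

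On the thin filament, Actc1 encodes cardiac α-actin. Its level was 3909, 6258 and 7209 CPM with Aβ42 and 5720, 7010 and 10928 CPM with ScrAβ42. The highest ScrAβ42 heart was mouse ScrAbeta42_3449, the one with the highest Myh6, and the next was at 7566 CPM. The log2 fold change was -0.29 (standard error 0.16, 95% interval -0.62 to 0.05, unadjusted p = 0.0865, adjusted p = 0.785 from edgeR). Without mouse ScrAbeta42_3449 it was -0.17, with an unadjusted p of 0.240, and without mouse ScrAbeta42_3448 it was -0.34, with an unadjusted p of 0.0474. With 3D6 Actc1 was 4713, 6404 and 7610 CPM and with the control antibody 3728, 6659 and 8167 CPM, a log2 fold change of -0.07 (unadjusted p = 0.626). It ranged from -0.15 without control mouse 22 to -0.01 without control mouse 11, with -0.12 without 3D6 mouse 17, -0.11 without 3D6 mouse 16 and between -0.03 and -0.02 without 3D6 mouse 4, 20 or 24.

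The log2 fold changes of tropomyosin and the troponins with Aβ42 were close to 0 without a covariate. Tpm1, the tropomyosin gene of heart muscle, was 4367 to 10599 CPM with Aβ42 and 6533 to 9337 CPM with ScrAβ42, a log2 fold change of -0.01 (standard error 0.17). Tnnt2, the troponin T that ties the complex to tropomyosin, was 7052 to 11501 CPM with Aβ42 and 7596 to 10000 CPM with ScrAβ42, a log2 fold change of 0.06 (standard error 0.12). The latter ran from 0.0077 to 0.12 with single mice left out. In both genes the ScrAβ42 hearts lay within the range of the Aβ42 hearts. Tnni3, the inhibitory troponin I of the heart, was 2439 to 4700 CPM with Aβ42 and 2897 to 4789 CPM with ScrAβ42, a log2 fold change of 0.02 (standard error 0.14). Tnnc1, the calcium-binding troponin C, was 878 to 2479 CPM with Aβ42 and 1477 to 2385 CPM with ScrAβ42, a log2 fold change of -0.08 (standard error 0.18). The unadjusted p of these 4 genes was between 0.616 and 0.959 from edgeR. The 95% interval was -0.36 to 0.34 for Tpm1, -0.19 to 0.31 for Tnnt2, -0.29 to 0.32 for Tnni3 and -0.47 to 0.31 for Tnnc1.

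With 3D6 the same 4 genes had log2 fold changes of -0.03 for Tpm1, -0.02 for Tnnt2, -0.11 for Tnni3 and -0.24 for Tnnc1. Tpm1 was 4822 to 7486 CPM with 3D6 and 4736 to 7171 CPM with the control antibody, Tnnt2 3513 to 6264 and 3973 to 6935 CPM, and Tnni3 2326 to 4278 and 2348 to 5664 CPM, so the groups overlapped in each. Tnnc1 had the smallest p of all members in the antibody study. It was 765, 1151 and 1515 CPM with 3D6 and 1019, 1282 and 1791 CPM with the control antibody, with 3 of 8 3D6 hearts below the lowest control heart (95% interval -0.58 to 0.11, unadjusted p = 0.172, adjusted p = 0.946 from edgeR). Those 3 hearts were mice 4, 7 and 12, which also had a high slope on transcript length, described further on, and with that slope as a covariate the log2 fold change was -0.15 (unadjusted p = 0.103). None of the 10 members had an unadjusted p under 0.05 in the antibody study, where 1.32% of all genes were higher and 2.32% lower with 3D6 at that threshold.

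Counted over the set, 8 of 10 members had a log2 fold change below 0 with Aβ42, and 9 of 10 with 3D6. Of all genes tested, 5934 of 11985 were below 0 with Aβ42 and 6460 of 12274 with 3D6. The median of the members was -0.16 with Aβ42, against 0.00 for all genes tested, and -0.11 with 3D6, against -0.01 for all genes tested. With Aβ42 the median over the members ran from -0.24 to -0.02 when single mice were left out, the latter without mouse Abeta42_3457. With 3D6 it was -0.16 to -0.06 over 9 alternative fits. The members took 7.27 ± 0.978% of all counts with Aβ42 and 7.79 ± 0.736% with ScrAβ42 (SD, n = 7 each), and 5.61 ± 0.441% with 3D6 and 5.97 ± 0.721% with the control antibody (SD, n = 8 each). Of 6 heart muscle cell markers, 6 were below 0 with Aβ42 (median -0.07) and 2 with 3D6 (median 0.10). Of these markers 0 passed adjustment, and their part in the values of the set was not tested.

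**Figure D3:**
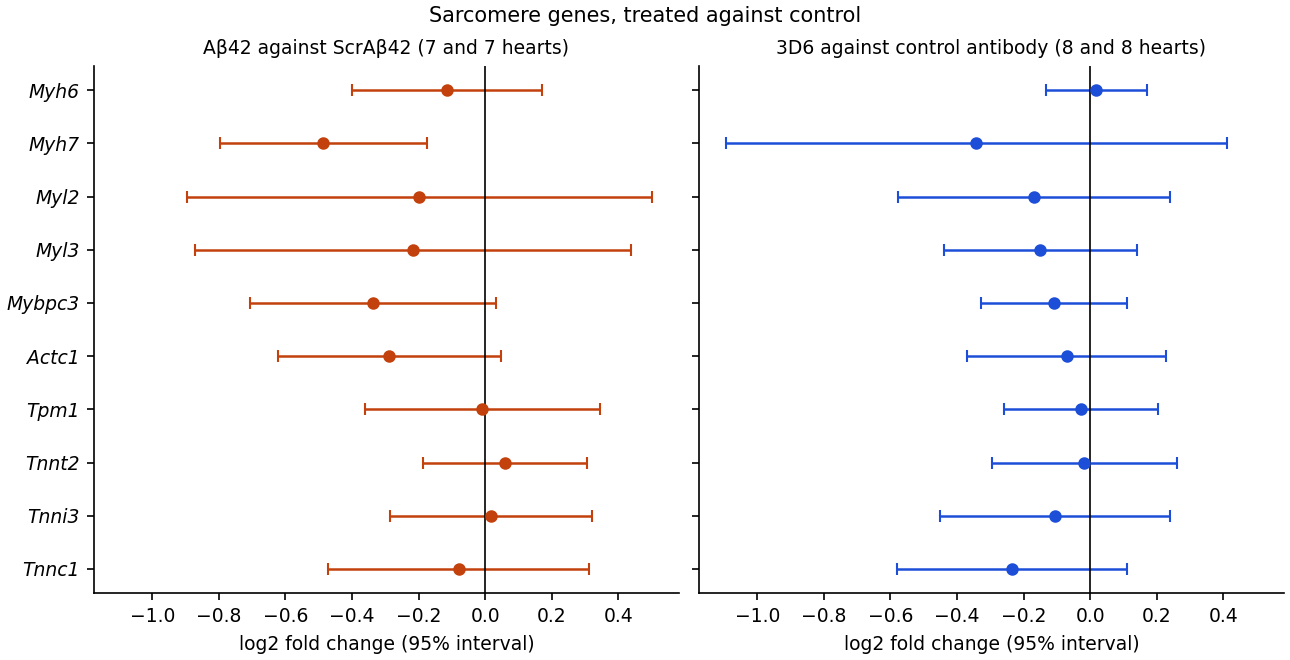
Log2 fold changes of the 10 genes with their 95% intervals from edgeR, Aβ42 against ScrAβ42 (left) and 3D6 against the control antibody (right), with the line at 0 for no difference. The interval of Myh7 with Aβ42, -0.80 to -0.17, is the only one that does not cross 0.

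In the antibody study a part of the spread ran with transcript length. For each heart, the slope of its deviations in log2 CPM on log2 transcript length was taken over all genes tested except the members and the mitochondrial genes. The slope was between 0.161 and 0.203 in 4 hearts, those of 3D6 mice 4, 7 and 12 and of control mouse 8, and between -0.166 and 0.035 in the other 12. In these 4 hearts Tnni3 was 2326 to 2801 CPM against 2873 to 5664 CPM in the other 12, and Tnnc1 was 765 to 1019 CPM against 1042 to 1791 CPM. Ryr2, the long calcium channel transcript used as a marker of heart muscle cells, went the other way, at 1588 to 1652 CPM against 567 to 1282 CPM. The members with long transcripts did not separate in this way. Medians in the 4 hearts and the other 12 were 2034 and 2335 CPM for Mybpc3 and 117 and 136 CPM for Myh7. For Myh6 they were 27288 and 25232 CPM, with overlapping ranges. Control mouse 22 had the lowest slope together with the highest Myl2 (7617 CPM) and Tnni3 (5664 CPM) and the lowest Actc1 (3728 CPM) of the study. Mitochondrial genes took 25.9% of its counts, the lowest share of the study, and 33.9% to 37.8% in the 4 hearts with a high slope. In the other hearts the share reached 35.2%, and its part in these levels was not tested. By mouse number, the slope was above 0 in every mouse from 3 to 15 and below 0 in every mouse from 16 to 24. Both ranges hold mice of both groups, and the part of this order in these levels was not tested. With the slope as a covariate, an alternative chosen after seeing the data, the log2 fold change for 3D6 was 0.01 for Tnni3, 0.06 for Tnnt2 and 0.02 for Tpm1, reversed in sign, and none of the 10 members had an unadjusted p under 0.05.

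Levels can be ranked between genes only per length, here in CPM per kilobase of the transcript length weighted by the counts of the antibody study. In ScrAβ42 hearts the order was Myl2 at 8826, Tnnt2 at 8219, Tpm1 at 6972, Myh6 at 6032, Actc1 at 4997, Myl3 at 4827, Tnni3 at 4237, Tnnc1 at 2714, Mybpc3 at 914 and Myh7 at 115 CPM per kilobase. Not all neighbours in this order were apart. Myl2 exceeded Tnnt2 in 9 of 14 hearts and Actc1 exceeded Myl3 in 7 of 14, whereas Tnni3, Tnnc1, Mybpc3 and Myh7 followed each other in this order in 14 of 14. In control antibody hearts, Myl2 led at 7471 CPM per kilobase, followed by Tpm1 at 5298, Tnnt2 at 4694, Myh6 at 4556 and Actc1 at 4393. There, Tnnt2 exceeded Myh6 in 9 of 16 hearts and Myh6 exceeded Actc1 in 9 of 16. Mybpc3, at 533 CPM per kilobase, and Myh7, at 29.0, came last in both studies. With the length of all annotated exons joined in place of the weighted one, Myh6 came first in the peptide study at 5065 and Actc1 in the antibody study at 3999 CPM per kilobase, since Myl2, Tpm1 and Tnnt2 have long exons in rare transcripts.

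**Figure D4:**
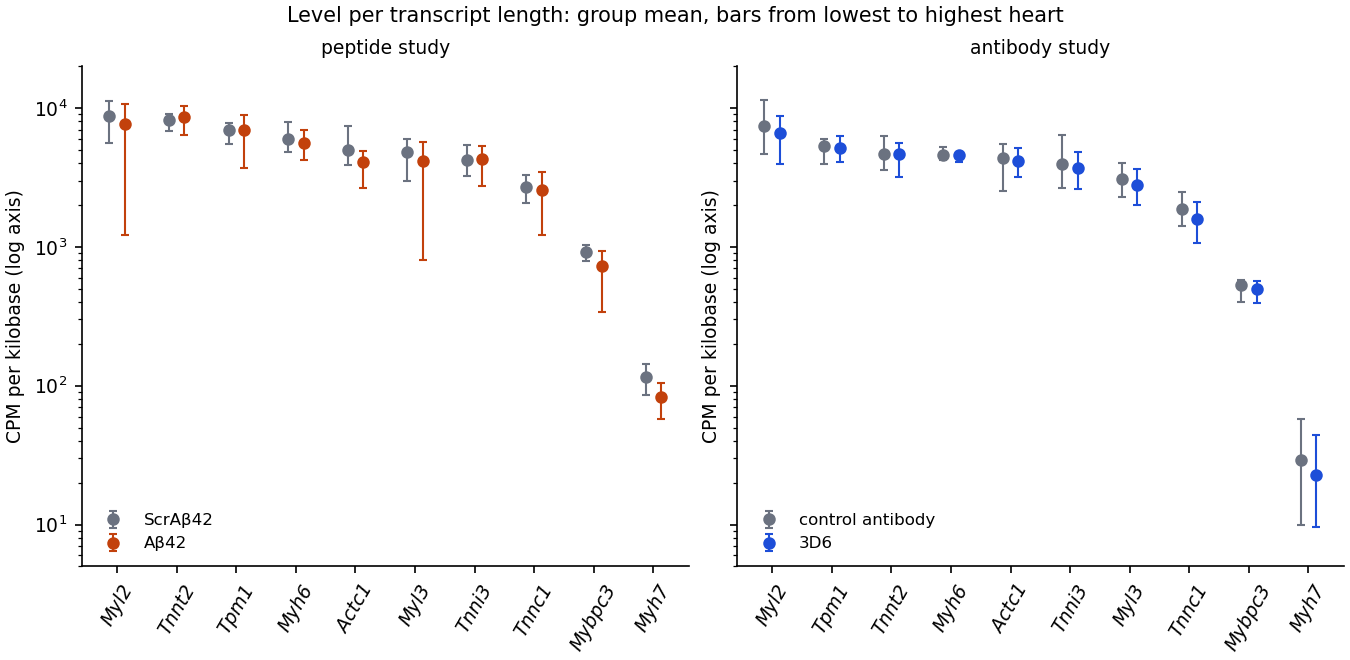
Level of each gene in CPM per kilobase of weighted transcript length on a log axis, ordered by the control group, with points for group means and bars from the lowest to the highest heart, in the peptide study (left) and the antibody study (right). Myh7 is last in both, at 115 CPM per kilobase with ScrAβ42 and 29.0 with the control antibody.

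Splice forms could be read in the antibody study only, since its counts were per transcript. Of the Tpm1 counts, 92.8% were on Tpm1-205 and 5.05% on a transcript of 649 bases that has no coding sequence in the annotation. The share of Tpm1-205 was 91.6%, 92.6% and 93.5% (lowest, median and highest) with 3D6 and 91.2%, 92.9% and 95.5% with the control antibody. The difference of -0.26 percentage points had an exact permutation p of 0.668. Tnnt2 was spread more widely, with 53.9% of its counts on Tnnt2-201, 20.6% on Tnnt2-211, 9.65% on Tnnt2-206 and 8.80% on Tnnt2-207, and between 1.41% and 1.95% on each of Tnnt2-202, Tnnt2-212 and Tnnt2-205. Tnnt2-201 took 44.6%, 50.2% and 62.3% of the Tnnt2 counts with 3D6 and 47.0%, 54.1% and 66.5% with the control antibody. The difference of -2.26 percentage points had an exact permutation p of 0.457. It was -0.53 points without control mouse 22, -1.20 without 3D6 mouse 12 and -3.73 without 3D6 mouse 24, and the medians differed by -3.90 points. Across all 20857 transcripts tested with edgeR, 0% passed an adjusted p of 0.05 and 2.4% (500) had an unadjusted p under 0.05, while DESeq2 called 9. Of the 9 transcripts of Tpm1 and Tnnt2 with at least 1% of their gene's counts, 0 had an unadjusted p under 0.05 and their log2 fold changes lay between -0.19 (Tnnt2-207) and 0.14 (Tnnt2-211). Below that share, and named after their values were seen, were 3 transcripts with an unadjusted p under 0.05 and an adjusted p of 1.00 from edgeR. A retained-intron transcript of Tnnt2, 2961 bases long and with 0.900% of the counts, had a log2 fold change of 0.42 (unadjusted p = 0.0116), with 8 of 8 3D6 hearts above the control median. Another such transcript, of 3330 bases and with 0.682% of the counts, had 0.54 (unadjusted p = 0.0134), likewise with 8 of 8 above. Both are longer than Tnnt2-201 (1064 bases), and the hearts with a high slope on transcript length were mostly 3D6 hearts. The part of that trend in both values was not tested. Tpm1-206, with 0.156% of the Tpm1 counts, had -0.40 (unadjusted p = 0.0230), with 7 of 8 below the control median.

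Optional exons near the 5′ end of the Tnnt2 coding sequence separate these forms, and an exon of 30 bases there is known from the fetal troponin T of the heart. It is printed because its inclusion is what the shares of the forms count. The 30-base exon is exon 4 of Tnnt2-207 (chr1:135843785-135843814, plus strand of GRCm38), and a 12-base exon before it is exon 3 of Tnnt2-206 (chr1:135842015-135842026). Capitals mark the exon and lower case the 12 bases on each side in the spliced transcript.
30-base exon in Tnnt2-207: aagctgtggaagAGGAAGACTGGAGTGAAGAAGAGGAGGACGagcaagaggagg
12-base exon in Tnnt2-206: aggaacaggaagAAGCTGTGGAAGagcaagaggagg
Both exons have the length of whole codons, 10 and 4, so each leaves the reading frame as it is. Transcripts with the 30-base exon, a share chosen after its values were seen and including Tnnt2-205 with a longer version of the exon, took 7.96%, 10.1% and 11.3% of the Tnnt2 counts with 3D6 and 9.23%, 10.4% and 13.9% with the control antibody. The difference of -1.0003 percentage points had an exact permutation p of 0.167. The highest share was that of control mouse 15, the mouse with the highest Myl7 (931 CPM) of the antibody study. The difference depends in part on this heart and was not calculated without it.

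The Myh6 counts also included short transcripts at the 3′ end of the gene, Myh6-207 (542 bases) and Myh6-206 (718 bases). They took 2.15%, 6.63% and 9.57% of the Myh6 counts with 3D6 and 2.48%, 5.90% and 27.3% with the control antibody, the last in control mouse 22, and the exact permutation p of the difference was 0.368. In the 4 hearts with a slope on length above 0.15 the share was 2.51% or less. This measure, too, was chosen after its values were seen.

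**Figure D5:**
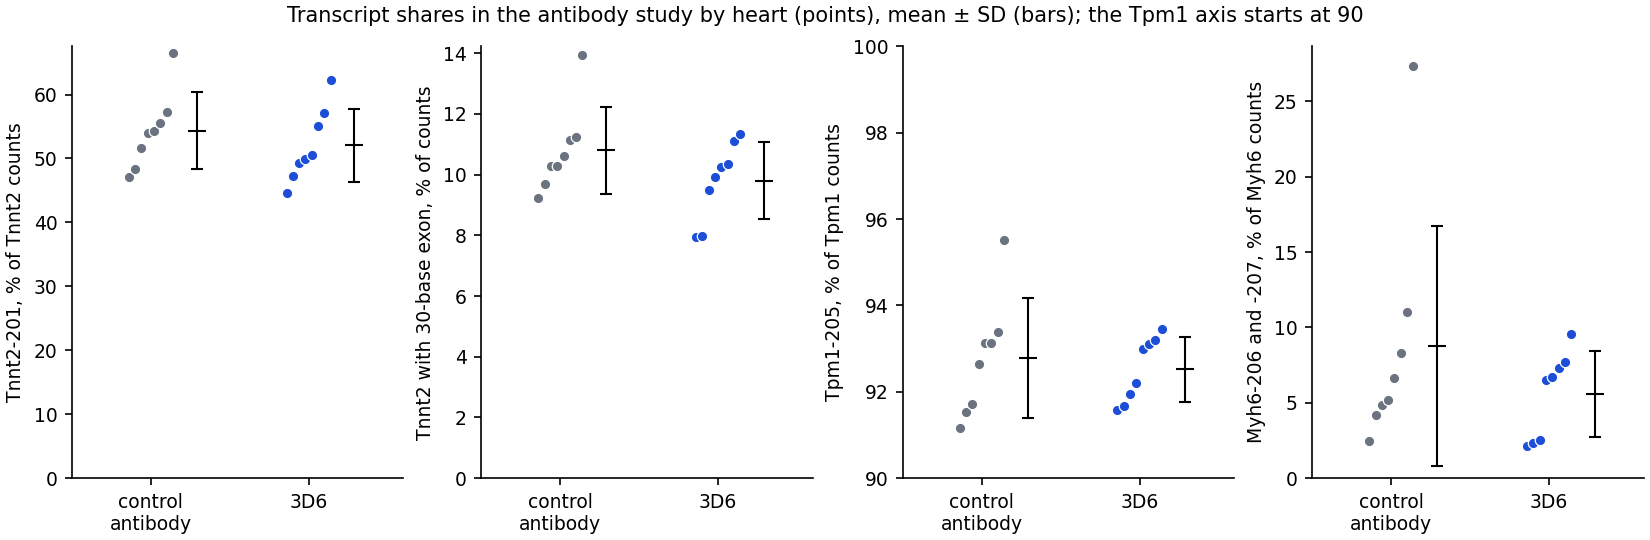
Shares of counts in percent in the antibody study, 1 point per heart with bars for the mean ± SD of 8 hearts: Tnnt2-201 of Tnnt2, Tnnt2 transcripts with the 30-base exon, Tpm1-205 of Tpm1 (axis from 90) and Myh6-206 with Myh6-207 of Myh6. The groups overlap in each, and control mouse 22 stands apart at 27.3% in the last.

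Other genes of the contractile apparatus were read as lists fixed by function. Of 24 isoform partners, which are the atrial, skeletal, fetal, smooth muscle and nonmuscle relatives of the members, 18 were tested with Aβ42 and 13 with 3D6, and 0 passed adjustment in either. With Aβ42 the smallest p were those of Tpm2, a tropomyosin of slow and smooth muscle, with a log2 fold change of 1.49 (unadjusted p = 0.0158, adjusted p = 0.693), and Mybpc2, myosin-binding protein C of fast muscle, with -0.73 (unadjusted p = 0.0214, adjusted p = 0.702 from edgeR). For Tpm2, 3 of 7 Aβ42 hearts lay below the ScrAβ42 median, and the level was 25.6, 46.4 and 357 CPM with Aβ42 and 19.9, 34.1 and 68.7 CPM with ScrAβ42 (lowest, median and highest). All 4 smooth muscle and pericyte markers were above 0 with Aβ42, among them Acta2 with 1.22 and Tagln with 1.38, 0 passed adjustment, and their part in the value of Tpm2 was not tested. Of 7 fast skeletal muscle markers tested, 5 were also below 0 with Aβ42, with a median of -0.53, 0 passed adjustment, and their part in the value of Mybpc2 was not tested. With 3D6 they were those of Tpm4, a nonmuscle tropomyosin, with -0.26 (unadjusted p = 0.0192, adjusted p = 0.946), and Myh7b with -0.35 (unadjusted p = 0.101). The median of the list was 0.11 with Aβ42 and -0.25 with 3D6, where 12 of 13 were below 0, as were 6460 of 12274 genes tested. With 3D6 the 4 endothelial markers (median -0.17), the 4 smooth muscle and pericyte markers (median -0.18) and the 5 fibroblast markers (median -0.07) were all below 0 too, with 0 past adjustment, and their part in the values of Tpm4 and of the list was not tested. The list itself holds the atrial genes Myl4, Myl7 and Mybphl. All 5 atrial markers tested were below 0 with 3D6 (median -0.88), and all 6 were above 0 with Aβ42 (median 2.35). Of these, 0 passed adjustment, and their part in the list was not tested either.

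All 16 genes of filament assembly and turnover were tested in both studies and 0 passed adjustment. With Aβ42, Xirp1, an actin-binding protein of the intercalated disc, had a log2 fold change of -0.39 (unadjusted p = 0.0054, adjusted p = 0.643) and Fhod3, a formin that builds cardiac actin filaments, -0.28 (unadjusted p = 0.0308, adjusted p = 0.725 from edgeR), and 12 of 16 were below 0 with a median of -0.10. With 3D6 the smallest p were those of Smyd1, a methyltransferase of muscle needed for myosin assembly, with 0.22 (unadjusted p = 0.106), and of Fhod3 with 0.30 (unadjusted p = 0.1301), and 14 of 16 were above 0 with a median of 0.15. Of all genes tested, 5934 of 11985 were below 0 with Aβ42, and 5814 of 12274 were above 0 with 3D6. Of the 6 heart muscle cell markers, 6 were below 0 with Aβ42 (median -0.07) and 4 above 0 with 3D6 (median 0.10). Their part in the values of the assembly genes was not tested.

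The 14 transcription factors of sarcomere genes gave 0 calls. With Aβ42 the smallest p were those of Gata6, with a log2 fold change of 0.17 (unadjusted p = 0.0623), and Tbx5, a factor with more transcript in atria than in ventricles, with 0.92 (unadjusted p = 0.0671). With 3D6 they were those of Thrb, the β thyroid hormone receptor, with 0.24 (unadjusted p = 0.0632), and Hand2 with 0.15 (unadjusted p = 0.0880). All 14 were above 0 with 3D6, with a median of 0.14, while with Aβ42 6 were above and 8 below. The hearts with a high slope on transcript length were 3 with 3D6 and 1 with the control antibody, and the part of that trend in the values of this list and of the assembly genes was not tested. Of 5 markers of hypertrophy and stress, 0 passed adjustment. Nppa, the atrial natriuretic peptide gene, had a log2 fold change of 2.93 with Aβ42 (unadjusted p = 0.0536, adjusted p = 0.763) and Nppb, the related gene of the ventricle, 0.18 (unadjusted p = 0.643). Nppa is also among the 6 atrial markers. It was highest, at 1264 to 5217 CPM, in the same 4 hearts that had Myl7 over 1000 CPM, and at most 617 CPM in the other 10. With 3D6 the smallest p were those of Nppb with -0.68 (unadjusted p = 0.182) and Fhl1 with 0.11 (unadjusted p = 0.363 from edgeR).

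The genes whose levels ran most like the Myh7 to Myh6 ratio in both studies were Gm5532, Tlr2, Olfr78, Ccpg1os and Tbx2. Spearman's rho was 0.62 to 0.74 over 14 hearts of the peptide study and 0.57 to 0.75 over 16 hearts of the antibody study. The genes most like the mean z-score of the 10 members were Mrps9, Gadd45gip1, Aldoa, Mb and Mrps14, with rho of 0.88 to 0.92 over 14 hearts and 0.86 to 0.93 over 16 hearts. Mb encodes myoglobin, Aldoa a glycolytic aldolase, and Mrps9 and Mrps14 proteins of the mitochondrial ribosome. These values describe the hearts, which share their library scaling and their base of counts, and were not tested.

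The tissue label was checked against cell type markers. The summed level of 6 heart muscle cell markers was 21037 to 33088 CPM with Aβ42, 24241 to 34613 CPM with ScrAβ42, 14732 to 22415 CPM with 3D6 and 9230 to 21625 CPM with the control antibody. The summed level of 6 atrial markers was 19.1 to 13634 CPM with Aβ42 and 19.1 to 4928 CPM with ScrAβ42, with medians of 1775 and 37.5 CPM. With 3D6 it was 2.08 to 1576 CPM and with the control antibody 11.7 to 6601 CPM. All 6 had a log2 fold change above 0 with Aβ42 (median 2.35) and all 5 tested had one below 0 with 3D6 (median -0.88), while 0 passed adjustment. No marker of the lists was at 0 in all hearts of a group. Among the other lists, the 4 smooth muscle and pericyte markers had a median of 1.07 with Aβ42, the 3 adipocyte markers 2.31 and the 4 blood markers -1.27, and their part in the levels of the members was not tested. Peptide libraries held 4478991 to 6015767 counts and antibody libraries 6397192 to 8310478. No 2 hearts of a group were alike within sampling noise.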

How the data were processed

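Left ventricular total RNA of 14 and 16 mice was sequenced as stranded libraries. Per the study's methods, the authors trimmed reads and mapped them with Salmon to GENCODE vM24. The authors deposited unnormalised values, as counts of 49671 genes for the peptide study and as estimated counts of 142647 transcripts for the antibody study. Per-gene sums of the latter used the GENCODE vM21 annotation, where 99.2% of the transcripts and 99.5% of the peptide study's genes were found. Both releases are of GRCm38. Estimated counts were rounded. Samples were grouped by their labels, and 1 column of counts was set aside because its number fits none of the labels, although its name begins like those of the ScrAβ42 columns.

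The test was edgeR 4.0.16 (TMM, quasi-likelihood, two-sided, Benjamini-Hochberg) in R 4.3.3, each study on its own, for genes averaging 10 or more counts a heart, after tests on simulated data. CPM are TMM-scaled, and log2 CPM used a prior count of 2. Ratios and shares were compared by exact permutation with Python 3.11.15. Sequences were aligned with Biopython 1.88, words of 31 bases were searched in all GENCODE vM21 transcripts, and miRNAs come from RefSeq. No protein sequences or promoters were used here.

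Alternatives were DESeq2 1.42.0, limma-voom (limma 3.58.1), RLE and total-count scaling, TMM without mitochondrial genes, other filters, an atrial covariate and leaving out each mouse. A covariate for the trend on transcript length was added after seeing the data. The members and lists were chosen with earlier results of these data known. The genes named are the 10 members, genes overlapping them, Tpm1 and Tnnt2 transcripts with at least 1% of their gene's counts, the 2 smallest p of each other list and the 5 genes most like each of 2 patterns. Single Myh6 transcripts, Ryr2 and the atrial genes were named after their values were seen.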

Additional observations from a re-analysis of the deposited data

Results flagged for a closer look

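Values far from the rest of their group were sought by Dixon's test in 52 sets of 7 or 8 hearts, and 5 were found. Chance flags about 1 in 20 groups. Among mice administered ScrAβ42, mouse ScrAbeta42_3449 had the highest Myh6 at 44473 CPM, with the other 6 hearts between 27054 and 33992 CPM. The same mouse had the highest Actc1 at 10928 CPM, with the others between 5720 and 7566 CPM. In the control antibody group, mouse 22 had the lowest Actc1 at 3728 CPM, with the other 7 hearts between 6401 and 8167 CPM. In this mouse the short transcripts Myh6-206 and Myh6-207 took 27.3% of the Myh6 counts, with the others between 2.48% and 11.03%. Control mouse 15 had the highest share of Tnnt2 counts on transcripts with the 30-base exon, 13.9%, with the others between 9.23% and 11.2%. mouse Abeta42_3457, with the lowest Myl2 and Myl3 of the peptide study, did not pass the test because other hearts of its group were also low.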

How the results depend on the processing

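No paired analysis was possible because the groups share no mouse numbers. No fit gave a member an adjusted p under 0.05. The number of genes with an adjusted p under 0.05 was 12 with DESeq2 in the peptide study and 9 for transcripts with DESeq2, and 0 to 3 when single mice of the peptide study were left out (3 without mouse Abeta42_3452 and 1 without mouse ScrAbeta42_3448). The number with an unadjusted p under 0.05, 780 with Aβ42, 447 with 3D6 and 500 for transcripts, was 1475, 1213 and 7350 without a filter on low counts, and 1333 with Aβ42 with the length trend as a covariate. With single mice left out it was 609 to 1266 with Aβ42 (highest without mouse ScrAbeta42_3448), 256 to 772 with 3D6 (lowest without 3D6 mouse 4, highest without control mouse 8) and 393 to 759 for transcripts (highest without control mouse 8). The number of members with an unadjusted p under 0.05 with Aβ42 was 3 under total-count scaling and 3 with the length trend as a covariate, each time Myh7, Mybpc3 and Actc1, and 1 to 2 when single mice were left out (2 without mouse Abeta42_3460 or mouse ScrAbeta42_3448). Over all genes, 649 had an unadjusted p under 0.05 under total-count scaling and 1333 with the length trend. The exact p of the Myh7 to Myh6 ratio with Aβ42 passed 0.05 only without mouse Abeta42_3455, and the difference was -0.46 to -0.27 over single mice left out. With the atrial covariate the log2 fold changes with Aβ42 of Myh6 (0.013), Myl2 (0.22), Myl3 (0.21), Tnnc1 (0.19) and Tpm1 (0.24) were reversed, as were those with 3D6 of Tnnt2 (0.019) and Tpm1 (0.0074). Total-count scaling reversed Myh6 with 3D6 (-0.030), and the length trend, added after seeing the data, reversed Tnnt2 (0.059), Tnni3 (0.0054) and Tpm1 (0.020) with 3D6. The cause was not tested. With 1 mouse left out, 11 of 140 values of members with Aβ42 and 8 of 160 with 3D6 changed sign. With Aβ42 these were Tnnc1 (-0.16 to 0.041), Tnni3 (-0.040 to 0.10) and Tpm1 (-0.079 to 0.099). With 3D6 they were Tnnt2 (-0.066 to 0.055), Tnni3 (-0.17 to 0.028) and Tpm1 (-0.074 to 0.018). Among transcripts they were Tnnt2-201 (-0.17 to 0.052), Tnnt2-202 (-0.013 to 0.20), Tnnt2-205 (-0.20 to 0.031), Tnnt2-212 (-0.053 to 0.14), Tpm1-205 (-0.076 to 0.016) and the Tpm1 transcript of 649 bases (-0.062 to 0.088), and the Tpm1-205 share differed by -0.49 to 0.13 percentage points. Without a change of sign, Tnnt2-207 ran from -0.25 to -0.12, Tnnt2-211 from 0.11 to 0.20 and Tnnt2-206 from 0.011 to 0.094. The lowest unadjusted p of Tnnt2-211 was 0.0321 from edgeR, and its adjusted p was 0.993 or higher.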
